A study of Mus musculus with 7 samples.

Results

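The 33 genes described here were expressed at a low level in wild type mouse left atria and were close to the counting floor in left atria that overexpressed FOG2. They were chosen by their CPM (a gene's count scaled to the sum of all gene counts of its library, times 1000000) from a table of 24421 genes. A gene was taken if it had at least 1 CPM in each of the 3 wild type libraries, less than 1 CPM in each of the 4 overexpression libraries, and a wild type mean at least 2 times the overexpression mean. Of 12731 genes at 1 CPM or more in every wild type library, 35 (0.275%) were under 1 CPM in every overexpression library, and the rule leaves out Sds and Scd3 from these. The reverse rule took 41 genes. It asked for under 1 CPM in every wild type library, at least 1 CPM in every overexpression library, and an overexpression mean at least 2 times the wild type mean. Because every library was used in the choice, the fall of these genes is a description and carries no test.

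RNA sequencing was done on left atria of adult CD1 mice, 4 libraries labelled FOG2 overexpression and 3 labelled WT. The protocol states that hearts came from DTG and NTG animals reared for 1 week without doxycycline. Neither abbreviation is spelled out, and the promoter or cell type that drives the transgene is not given in the sources used here. The labels do not state that each library is a separate animal, and p-values below therefore refer to the spread among the 7 libraries, part of which may be technical.

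FOG2, the product of Zfpm2, is a multi-zinc-finger protein that binds GATA factors such as GATA4 and modulates their activity on target promoters. In the heart, GATA4 works together with the T-box factor TBX5, which the series' design text names, in the gene network of atrial rhythm. FOG2 can recruit the NuRD corepressor complex, and it has been described as both a corepressor and a coactivator.

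Zfpm2 was measured at 31.2, 28.5 and 27.9 CPM in wild type replicates 1 to 3, and at 146, 239, 271 and 246 CPM in overexpression replicates 1 to 4. All overexpression libraries lay above all wild type libraries, with replicate 1 the lowest of them (log2 fold change 2.82 ± 0.22, SE; edgeR quasi-likelihood test, adjusted p = 0.000205 by Benjamini-Hochberg over 13295 genes). Counts on genes summed to 7673309 to 8579443 in wild type and 5562520 to 8655655 in overexpression libraries, so a single count stood for 0.116 to 0.180 CPM in overexpression libraries and 1 CPM was 5.56 to 8.66 counts there. Overexpression replicate 1 stood apart, with a correlation across genes of 0.949 to 0.952 with the other overexpression libraries, while the lowest between wild type libraries was 0.980. Together with wild type replicate 2 it was one of the libraries that held Y-linked transcripts (567 and 514 CPM), and the labels give no sex, so within the overexpression group sex and whatever else sets this library apart cannot be told apart.

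Summed over the 33 genes, the level was 120, 102 and 95.2 CPM in wild type replicates 1 to 3 and 14.8, 15.7, 14.0 and 13.7 CPM in overexpression replicates 1 to 4. Overexpression replicate 1, with the least Zfpm2 of its group, had a sum inside the range of the other 3. As counts, the sums were 1018, 779 and 817 in wild type and 128, 101, 78 and 118 in overexpression. A median gene of the set had 1.63 to 2.11 CPM in a wild type library and 0.360 to 0.465 CPM in an overexpression library. None of the 33 was at 0 in all 4 overexpression libraries. The mean wild type level was 2.17 to 194 times the mean overexpression level, with a median of 5.10 times. For 9 genes this ratio was under 3, for 17 at least 5, and for 5 at least 10. With counts pooled over the libraries of a group, the exact 95% interval of the ratio lay wholly above 1 for all 33 and had a lower bound of at least 2 for 22, an interval that covers counting error only and takes no account of the choice.

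**Figure D1:**
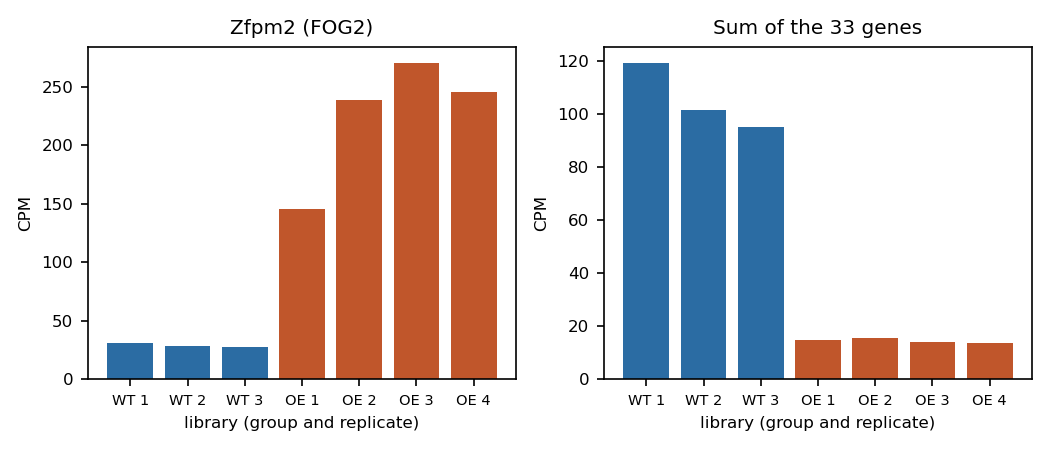
Left, Zfpm2 in CPM in each of the 7 libraries (WT, wild type; OE, FOG2 overexpression), and right, the sum of the 33 genes in CPM, with bars starting at 0. Zfpm2 was 146 to 271 CPM in overexpression libraries, where the sum of the 33 genes was 13.7 to 15.7 CPM against 95.2 to 120 CPM in wild type.

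Of the 33 genes, 4 had a wild type mean of at least 5 CPM, among them 5430419D17Rik, Cdcp1 and Bmp3, and 27 were under 3 CPM. In bulk tissue, fewer cells of a type and less RNA per cell cannot be told apart, which applies to each level below. The genes are described by the role of their products, with library values for those that had the highest wild type means.

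Membrane, secreted and vesicle-associated proteins included Cdcp1, the gene with the largest ratio of the set. 5430419D17Rik, which RefSeq names Cdcp3, lies on chr7:131174402-131306451 (GRCm38, plus strand). Its levels were 18.5, 18.1 and 16.1 CPM in wild type replicates 1 to 3 and 0.462, 0.465, 0.180 and 0.465 CPM in overexpression replicates 1 to 4. The wild type libraries were close to each other, and the mean was 44.7 times lower in overexpression (log2 fold change -5.50 ± 0.25, SE). Cdcp1 encodes a transmembrane CUB-domain glycoprotein that is a substrate of Src kinases, and lies on chr9:123170824-123216038, minus strand. It had 8.21, 5.73 and 8.63 CPM in wild type, against 0, 0.155, 0 and 0 CPM in overexpression. That is 188 counts against 1 count, a pooled ratio of 222 (95% counting interval 39.4 to 8821).

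The start regions of these 2 genes, whose ratios were among the 5 that reached 10, are shown as examples. Both windows run from 250 bases before to 50 bases after the RefSeq gene start in GRCm38.p6, 5′ to 3′ on the gene's strand, at chr7:131174152-131174451 (plus) for Cdcp3 and chr9:123215989-123216288 (minus) for Cdcp1. Capitals mark TATAAA, at position -29 of Cdcp3, and the reverse complement of AGGTGT in Cdcp1.
Cdcp3: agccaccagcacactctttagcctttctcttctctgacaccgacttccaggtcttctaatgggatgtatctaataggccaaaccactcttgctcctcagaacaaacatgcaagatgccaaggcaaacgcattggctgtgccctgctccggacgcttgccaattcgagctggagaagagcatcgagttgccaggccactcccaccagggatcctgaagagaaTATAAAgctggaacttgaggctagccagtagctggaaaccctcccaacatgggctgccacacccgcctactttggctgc
Cdcp1: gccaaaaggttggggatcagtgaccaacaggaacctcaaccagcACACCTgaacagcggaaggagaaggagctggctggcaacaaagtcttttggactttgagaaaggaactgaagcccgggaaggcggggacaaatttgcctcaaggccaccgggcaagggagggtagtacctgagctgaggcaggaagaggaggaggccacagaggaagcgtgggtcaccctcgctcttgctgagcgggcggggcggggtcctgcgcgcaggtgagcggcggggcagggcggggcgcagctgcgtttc
A match of letters is a description and not a binding site, and the 2 windows hold none of the searched motifs in common. The window of Rufy4, a gene with a ratio of 51.1, is not shown and held none of the searched motifs.

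Bmp3, a secreted ligand of the BMP family that opposes osteogenic BMP signalling, had the most even wild type levels of the set. They were 6.22, 5.86 and 5.94 CPM, against 0.462, 0.775, 0.360 and 0.232 CPM in overexpression, a mean 13.1 times lower. Gal3st3, a Golgi sulfotransferase acting on galactose of glycans, went from 2.35, 2.74 and 1.63 CPM to 0.116, 0.930, 0.360 and 0.465 CPM, so overexpression replicate 2 came close to the limit of 1 CPM. Rufy4, a RUN and FYVE domain protein linked to autophagy in dendritic cells, had 1.41, 3.39 and 2.10 CPM in wild type and a count in 1 overexpression library alone, at 0, 0, 0.180 and 0 CPM. Its pooled ratio was 66.2 (interval 11.4 to 2660). C8g, the gamma chain of complement C8, averaged 2.16 ± 0.55 CPM (SD, n = 3) in wild type and 0.409 ± 0.065 CPM (SD, n = 4) in overexpression. Icam4, an adhesion molecule of red cells, averaged 1.13 ± 0.14 and 0.287 ± 0.227 CPM. Of the 5 genes on the erythroid list, 4 haemoglobin genes were at 0 in every library, and the list's sum, carried by Alas2, was 35.3 to 45.4 CPM in wild type and 25.8 to 229 CPM in overexpression, highest in replicate 1. Reads without a unique alignment were not counted on genes. Their row held 37.1% to 43.4% of all entries summed per library, and how often each such read was entered is not given. Their part in these zeros was not tested. The zeros therefore do not show that red cell RNA was absent.

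Genes best known from neurons and sensory cells formed another group. Clec2l, a C-type lectin-like protein described in brain, had 3.76, 2.48 and 4.31 CPM against 0.693, 0.620, 0.360 and 0.465 CPM. Slc39a12, the zinc importer ZIP12, had 2.93, 2.61 and 2.33 CPM against 0.809, 0.465, 0.360 and 0.116 CPM, with overexpression replicate 1 the highest of its group. For Slc24a4, a potassium-dependent sodium-calcium exchanger, the values were 1.76, 1.96 and 3.73 CPM against 0.809, 0.310, 0 and 0.232 CPM. In these 3 genes no overexpression library reached a wild type library, which the choice fixes.

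The lower members of this group were Gnb3 (2.10 ± 0.43 CPM in wild type, SD, n = 3, then 0.574 ± 0.332 CPM in overexpression, SD, n = 4), a G protein beta subunit of cone photoreceptors, Gabrb2 (1.43 ± 0.35 and 0.596 ± 0.345 CPM), a subunit of the GABA-A receptor, and Cngb3 (1.41 ± 0.41 and 0.602 ± 0.224 CPM), a subunit of the cone cyclic nucleotide-gated channel. Markers of autonomic neurons stand beside these values. None of the 3 tested on that list was called, and the summed level of its 12 genes was 7.63 to 12.7 CPM in wild type and 7.86 to 10.6 CPM in overexpression, with Chat, Slc18a3, Snap25 and Th at 0 in every library. The 8 glial markers summed to 27.5 to 39.7 CPM and to 35.1 to 75.5 CPM. Only 4 of them were tested, with a median log2 fold change of 0.59, and none of these was called.

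Genes of cilia, sperm and germ cells were Cfap61, Gsg1, Spef2 and Nme8. Cfap61, a component of the radial spokes of the axoneme, had 2.58, 3.78 and 1.63 CPM in wild type, against 0.693, 0.155, 0.539 and 0.929 CPM in overexpression. Gsg1, a membrane protein described in germ cells, had 2.35, 2.61 and 2.45 CPM and fell to 0.578, 0.155, 0.719 and 0.348 CPM. Spef2, a protein of the central apparatus of the sperm tail, averaged 2.12 ± 0.79 CPM (SD, n = 3) and 0.789 ± 0.170 CPM (SD, n = 4), among the smallest ratios of the set at 2.69. Nme8, a thioredoxin-domain protein of motile cilia, averaged 1.48 ± 0.38 and 0.303 ± 0.241 CPM. Foxj1, the master regulator of motile cilia and an airway marker, had 1 count in all 7 libraries together. The 8 lung and airway markers summed to 0.352 to 1.04 CPM in wild type libraries and 5.93 to 13.0 CPM in overexpression libraries, with Sftpc at 0 and the 1 tested marker called higher. Their part in these values was not tested.

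Muscle was represented by Myot and Kbtbd13. Myot encodes myotilin, a Z-disc protein, and averaged 1.97 ± 0.84 CPM (SD, n = 3) in wild type and 0.329 ± 0.272 CPM (SD, n = 4) in overexpression. Kbtbd13, a kelch-repeat adaptor of a cullin ubiquitin ligase in muscle, averaged 1.24 ± 0.18 and 0.360 ± 0.145 CPM. Beside these, the 9 skeletal muscle markers summed to 1195 to 1702 CPM in wild type and 1023 to 1258 CPM in overexpression, with 0 of 4 tested called. Acta1 of that list had an average log2 CPM of only 1.60, so other genes of the list carried the sum. How specific those are to skeletal muscle was not tested, and the sum is not read as skeletal muscle RNA. Atrial cardiomyocyte markers summed to 71600 to 79190 CPM and 47830 to 60830 CPM, with 3 of 9 tested lower, while mural cell markers summed to 458 to 538 CPM and 1324 to 1807 CPM with 2 of 8 higher. Sinoatrial node markers summed to 108 to 164 CPM and 260 to 360 CPM, with 2 of 6 tested higher and a median log2 fold change of 0.31. Vsnl1 on that list went the other way, at 0.932 to 1.82 CPM in wild type against 0.116 to 0.465 CPM in overexpression. The part of these marker shifts in the fall of the 33 genes was not tested, and none of the 33 is on any of the 20 marker lists.

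**Figure D2:**
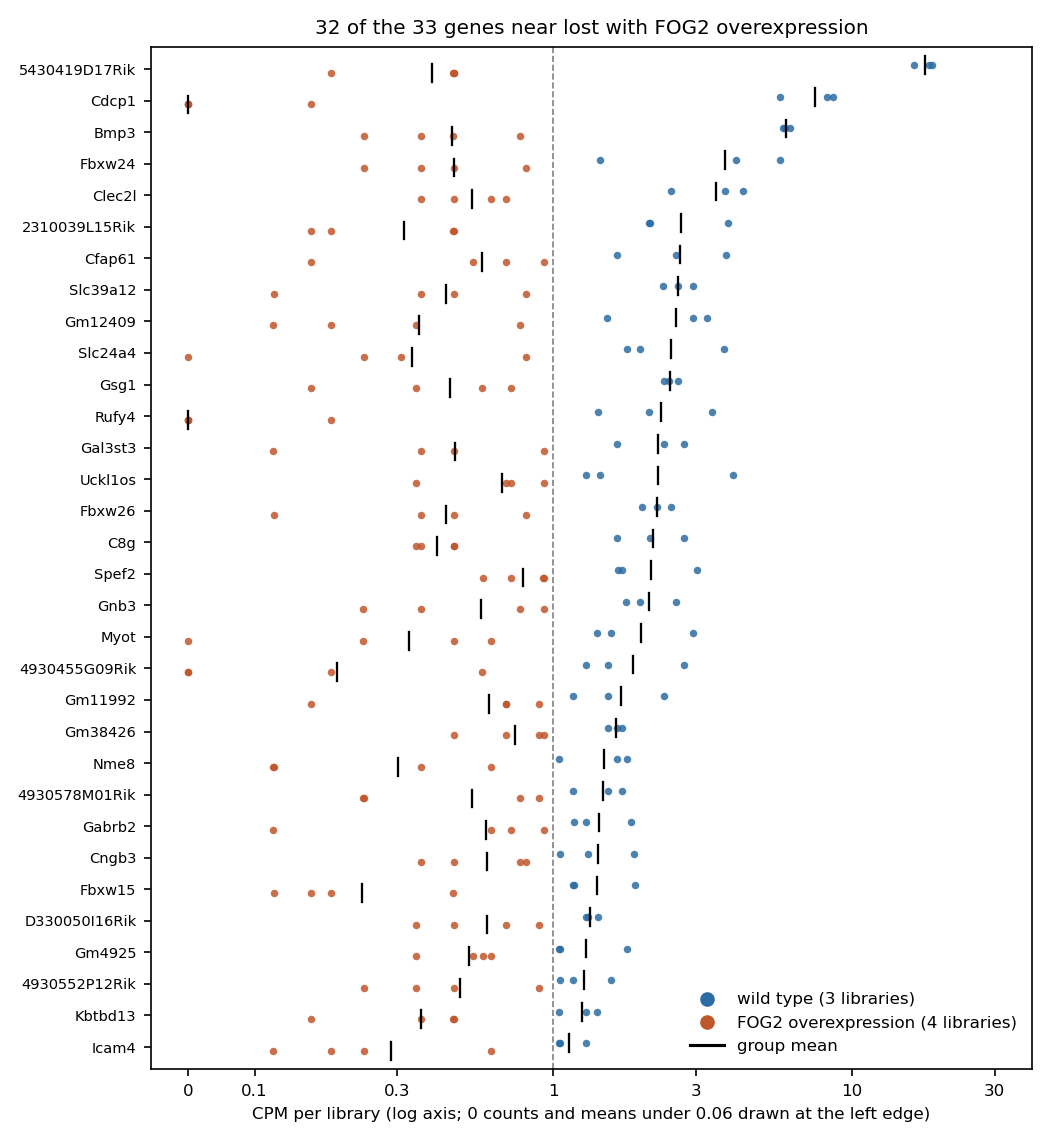
CPM on a log axis for 32 of the 33 genes, ordered by wild type mean, with 1 point per library (3 wild type, 4 overexpression) and a bar at each group mean; 0 counts and means under the axis range, those of Cdcp1 and Rufy4 in overexpression, are drawn at the left edge. The dashed line at 1 CPM separates the groups by choice, and of the genes drawn 5430419D17Rik, Cdcp1 and Bmp3 had wild type means of at least 5 CPM.

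Fbxw15, Fbxw24 and Fbxw26 encode F-box proteins with WD40 repeats, members of a rodent family described in oocytes. They lie together in a cluster on chr9:109139447-109790670, in which the table has 13 Fbxw genes, all on the minus strand. This family was singled out after its values were seen. Fbxw24 (chr9:109601116-109626057) had 5.75, 1.43 and 4.08 CPM in wild type, against 0.809, 0.465, 0.360 and 0.232 CPM in overexpression. Fbxw26 (chr9:109717566-109746089) had 2.23, 2.48 and 1.98 CPM and 0.809, 0.465, 0.360 and 0.116 CPM, and Fbxw15 (chr9:109552602-109568262) had 1.88, 1.17 and 1.17 CPM and 0.462, 0.155, 0.180 and 0.116 CPM. In all 3 genes overexpression replicate 1 was the highest of its group.

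Between Fbxw24 and Fbxw26 lies Fbxw18 (chr9:109676734-109702700), which was too high in overexpression to be chosen. It had 11.97, 4.43 and 10.6 CPM in wild type, against 5.78, 1.71, 1.26 and 1.05 CPM in overexpression. Wild type replicate 2 was the lowest for both Fbxw18 and Fbxw24, and overexpression replicate 1 was above wild type replicate 2, so the groups overlapped. Its log2 fold change was -1.95 ± 0.59 (SE; edgeR quasi-likelihood test, adjusted p = 0.109). The call depended on the tool and on 1 library, since the adjusted p was 0.0159 with DESeq2 and 0.00181 in edgeR without overexpression replicate 1. The other 9 Fbxw genes of the cluster had at most 5 counts each over all 7 libraries, and 3 of them had none. Of the tested genes that flank the cluster, Plxnb1 had a log2 fold change of -0.35 ± 0.12 (adjusted p = 0.155) on one side, and on the other 3000002C10Rik had -0.54 ± 0.33 (adjusted p = 0.404) and Nme6 -0.05 ± 0.16 (adjusted p = 0.887).

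**Figure D3:**
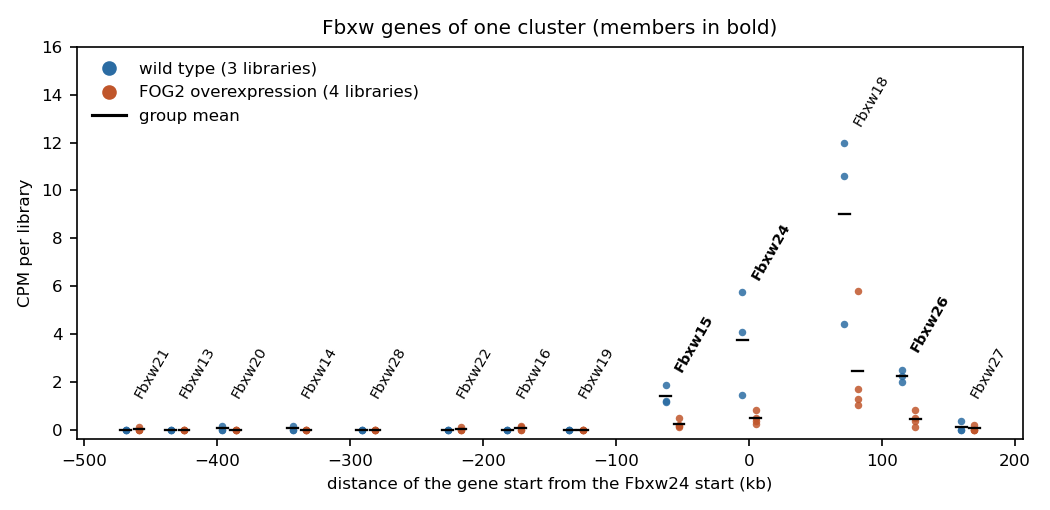
CPM of the 13 Fbxw genes of the chromosome 9 cluster by distance of the gene start from that of Fbxw24 in kb, with 1 point per library (3 wild type, 4 overexpression), a short bar at each group mean and the chosen genes in bold. Expression was confined among these 13 genes to the neighbours Fbxw15, Fbxw24, Fbxw18 and Fbxw26, apart from 9 genes with 5 or fewer counts each.

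The gene starts of this cluster are close copies of each other. RefSeq windows of 250 bases before to 50 after the start were 90.4% to 93.1% identical between Fbxw15, Fbxw24 and Fbxw26. They are shown because 9 of the 10 cluster genes with a window held AGGTGTGA, the overlap of the T-box motifs AGGTGT and GGTGTGA, which 1.28% of all promoter windows held on either strand. The lines give 60 bases around it (GRCm38.p6, 5′ to 3′ on the minus strand of chromosome 9), with the 8 bases in capitals, starting 207, 205, 207, 187, 201 and 186 bases before the gene start in the order shown. The match began 174 bases before the start of Fbxw24 and Fbxw15, 172 before that of Fbxw26 and 154 before that of Fbxw18.
Fbxw24: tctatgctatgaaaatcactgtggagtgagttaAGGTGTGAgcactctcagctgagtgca
Fbxw26: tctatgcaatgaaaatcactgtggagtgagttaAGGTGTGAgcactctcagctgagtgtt
Fbxw15: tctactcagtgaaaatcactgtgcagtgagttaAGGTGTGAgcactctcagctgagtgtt
Fbxw18: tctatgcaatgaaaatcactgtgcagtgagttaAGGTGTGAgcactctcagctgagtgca
Fbxw14: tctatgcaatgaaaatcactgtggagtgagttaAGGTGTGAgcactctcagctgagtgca
Fbxw20: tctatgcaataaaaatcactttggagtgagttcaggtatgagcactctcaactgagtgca
Counted from 1 at the left end with Fbxw24 first, Fbxw26 differed by T8A, C59T and A60T, Fbxw18 by T8A and G24C, and Fbxw14 by T8A alone. Fbxw20, the gene without the match, differed by T8A, G11A, G21T, A33C, G38A and G51A, of which G38A lies in the 8 bases. Fbxw14 held the 8 bases unchanged with 1 count over all 7 libraries, and Fbxw20 also had 1 count. Exons of these genes are related. Reads without a unique alignment, 37.1% to 43.4% of summed entries per library, were not counted on genes, so reads that fit several copies could be missing. Of the 50-base words of Fbxw15, Fbxw24, Fbxw26 and Fbxw18 transcripts, 3.34% to 9.69% were shared with another gene of the cluster. Counts of these genes are therefore uncertain. For Fbxw14 the share of such words was 58.5%, so its count of 1 is the more uncertain.

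Across the 33 genes, 26 had a RefSeq promoter window, 31 windows in all. AGGTGT or GGTGTGA on either strand was in 11 of these (35.5%), against 16.1% of 32851 windows of all genes and 12.7% of 12351 windows of genes at 1 CPM or more in every wild type library. Since 3 of the 11 are the Fbxw copies, the 23 remaining genes with a window included 8 with a match, among them Cdcp1, Slc24a4, Gabrb2 and Kbtbd13. That count is of genes with a match in any of their windows, whereas the shares above are of windows, so it is not set against them. AGATAA or TGATAA, forms of the GATA motif, were in 6 windows (19.4%), against 18.6% of all windows and 10.1% of those of expressed genes. TATAAA was in 5 (16.1%), against 13.6% and 7.29%. These shares are descriptions of short windows, and nothing about a factor follows from them.

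Noncoding RNAs and genes without a described product made up the rest. By the annotation 24 of the 33 were protein coding, 8 were noncoding (24.2%) and Gm4925 was a processed pseudogene. Among 971 genes at 1 CPM or more in every wild type library with a wild type mean under 3 CPM, 10.8% were noncoding, against 29.6% of the 27 chosen genes at that level. The noncoding 2310039L15Rik had 2.11, 2.09 and 3.85 CPM in wild type, against 0.462, 0.155, 0.180 and 0.465 CPM in overexpression. Gm12409 had 2.93, 3.26 and 1.52 CPM and 0.116, 0.775, 0.180 and 0.348 CPM. Uckl1os, antisense to Uckl1, had 3.99, 1.43 and 1.28 CPM and 0.693, 0.930, 0.719 and 0.348 CPM, with wild type replicate 1 well above the others. Mean wild type and overexpression levels were 1.85 and 0.189 CPM for 4930455G09Rik, 1.62 and 0.747 for Gm38426, which had the smallest ratio, 1.46 and 0.534 for 4930578M01Rik, 1.33 and 0.602 for D330050I16Rik, and 1.26 and 0.486 for 4930552P12Rik. The coding gene Gm11992 averaged 1.68 and 0.611 CPM, and the pseudogene Gm4925 averaged 1.28 and 0.522 CPM.

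Per kilobase of exon, the wild type order differed from that of CPM. The short Gm12409 was highest at 3.98 CPM per kb, followed by 4930455G09Rik at 2.93, Fbxw24 at 2.52, Clec2l at 2.46 and 5430419D17Rik at 2.05 CPM per kb. Spef2 was the lowest at 0.214 CPM per kb. Lengths were at hand for 31 of the 33. The coefficient of variation between wild type libraries ran from 3.10% in Bmp3 to 68.1% in Uckl1os with a median of 25.9%, next to a median of 24.3% for the 971 genes under 3 CPM.

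Among the 33 genes, 9 overlap the span of another gene, introns included. The strand setting of the counting is not given in the sources used here, so reads of overlapping genes cannot be told apart from the counts alone. The row for ambiguous reads held 0.101% to 0.254% of summed entries per library, and how many of those came from these genes is not known. 5430419D17Rik lies inside the annotated span of Fgfr2 on the opposite strand. That span, chr7:130162451-133123350, is long and also holds other genes such as Cuzd1 and Pstk. Fgfr2, a growth factor receptor, averaged 11.4 ± 1.2 CPM (SD, n = 3) in wild type and 12.1 ± 2.3 CPM (SD, n = 4) in overexpression. Uckl1, the partner of Uckl1os, averaged 42.9 ± 2.3 and 40.6 ± 2.6 CPM, and Fbxw5, which overlaps C8g, 63.6 ± 5.2 and 59.9 ± 6.8 CPM. No tested gene that overlapped one of the 33 was called.

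The genes around the 33 were not used in the choice. Of 176 genes within 100 kb of one of them, 118 were tested, and 3 were lower in overexpression (2.54%; edgeR quasi-likelihood test, adjusted p under 0.05) and 0 higher. Over all 13295 genes tested, 3.29% were lower and 1.55% higher, so the share of neighbours was near that of all genes. Their median log2 fold change was -0.04, against 0.02 for all genes. Without overexpression replicate 1, 5 of 117 tested neighbours were called, beside 1151 of all 13191 genes tested in that setting.

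The lower neighbours were 4930481A15Rik, Aldh1b1 and Drap1. 4930481A15Rik (chr19:5406740-5422847), an antisense noncoding transcript, had 20.0, 14.7 and 12.6 CPM in wild type, against 0.578, 0.930, 0 and 1.05 CPM in overexpression, and missed the choice by overexpression replicate 4 alone. Its log2 fold change was -4.63 ± 0.45 (adjusted p = 0.000696), and it passed the test under each of 13 alternative analyses. Within about the same stretch lie the chosen genes Gal3st3 (chr19:5298331-5308738) and D330050I16Rik (chr19:5388336-5390069), whereas Banf1, Eif1ad and Sart1 between them had log2 fold changes of -0.05 ± 0.15, 0.20 ± 0.13 and 0.03 ± 0.11 and were not called. Drap1, a corepressor subunit whose end overlaps 4930481A15Rik on the opposite strand, had 76.2, 83.4 and 78.6 CPM and 57.2, 61.6, 54.1 and 60.4 CPM (log2 fold change -0.57 ± 0.10; adjusted p = 0.0104, and 0.0648 without wild type replicate 2). Aldh1b1, a mitochondrial aldehyde dehydrogenase that lies near Gm12409, had 111, 112 and 171 CPM in wild type, against 22.9, 23.6, 28.4 and 26.1 CPM in overexpression (log2 fold change -2.51 ± 0.18; adjusted p = 0.000133).

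**Figure D4:**
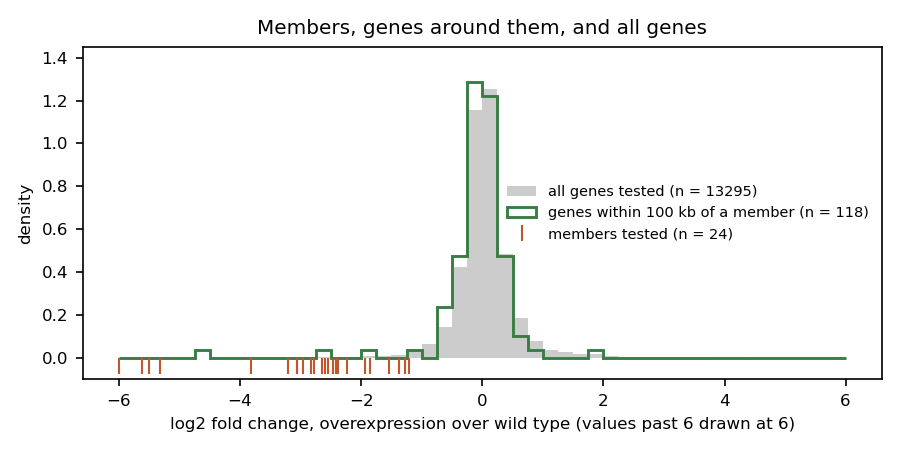
Density of log2 fold changes, overexpression over wild type, for all 13295 tested genes and for the 118 tested genes within 100 kb of the 33, with a tick for each of the 24 of the 33 that were tested; values beyond 6 are drawn at 6. Most neighbours lay near 0 like most genes (medians -0.04 and 0.02); 4930481A15Rik at -4.63 and Aldh1b1 at -2.51 were called, whereas Fbxw18 at -1.95 and Cdca3 at 1.96 were not.

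By chromosome, 6 of the 33 lay on chromosome 9 (18.2%, against 5.19% of genes of similar wild type level), of which 3 are the Fbxw cluster and the others Cdcp1, Icam4 and Kbtbd13. Genes that share a name stem with one of the 33 were also looked up. Of 123 such genes, 67 were tested, of which 1 was lower (1.49%) and 1 higher (1.49%). Over all genes tested, 3.29% were lower and 1.55% higher, so neither share exceeded that of all genes. The lower one was Kbtbd12, a kelch protein at 33.2 ± 0.3 CPM (SD, n = 3) in wild type and 20.6 ± 4.9 CPM (SD, n = 4) in overexpression (log2 fold change -0.82 ± 0.18; edgeR adjusted p = 0.0308). Bmp1, a procollagen protease and not a BMP ligand, was the 1 that was higher, at 65.3 ± 4.8 and 100 ± 11 CPM (log2 fold change 0.49 ± 0.10; edgeR adjusted p = 0.0257). The calls were lost in 7 and 6 of 13 alternatives, and without wild type replicate 2 reached adjusted p = 0.127 for Kbtbd12 and 0.139 for Bmp1.

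In the fit across all genes 24 of the 33 passed the filter on low counts, and 18 of these were called lower and 0 higher, beside 3.29% and 1.55% of all tested genes. Since the same contrast chose them, nothing is read from this count, which fell to 9 without wild type replicate 1 and to 9 without wild type replicate 2. The 6 that were tested and not called were 4930455G09Rik, D330050I16Rik, Gabrb2, Gm38426, Spef2 and Uckl1os. The filter removed 4930552P12Rik, 4930578M01Rik, Cngb3, Fbxw15, Gm11992, Gm4925, Icam4, Kbtbd13 and Nme8.

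The choice was also repeated with each library left out in turn. Leaving out wild type replicates 1, 2 and 3 took 37, 38 and 46 genes, of which 33, 33 and 32 were among the 33. Leaving out overexpression replicates 1 to 4 took 38, 41, 39 and 35 genes, of which 31, 32, 33 and 33 were among them. The genes gained were those that only the library left out had kept from being chosen, most of all wild type replicate 3.

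The edge of the choice was thin. The genes nearest to it from inside had a lowest wild type level of 1.04 CPM (Kbtbd13, Gm4925, Nme8 and Icam4, all in wild type replicate 2) or 1.06 CPM (4930552P12Rik and Cngb3, both in wild type replicate 1). Just outside lay Klhl34 and Pzp, each at 1.04 CPM in overexpression replicate 1, 4930481A15Rik at 1.05 CPM in overexpression replicate 4, Fam169a at 0.939 CPM in wild type replicate 1, and Vsnl1 at 0.932 CPM in wild type replicate 3. Of these, Pzp, a protease inhibitor of the alpha-2-macroglobulin family, had 5.52, 4.56 and 3.96 CPM in wild type, against 1.04, 0, 0.360 and 0.116 CPM in overexpression. Klhl34 had 3.17, 2.997 and 3.03 CPM and 1.04, 0.775, 0.180 and 0.813 CPM. In all, 33 genes missed the rule by 1 library, and none by the ratio alone.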

How the data were processed

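The deposited table held whole-number counts per gene for 7 libraries. The authors made it with tools that, per the submitters' processing notes, included STAR, HTSeq (version 0.6.0) and DESeq2 on mm10, with no roles stated. The strand setting is not given in the sources used here, and one label says polyA while the protocol names ribosomal RNA removal. Rows naming no gene, 66.9% to 72.2% of summed entries per library, were left out.

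CPM used each library's gene total. Genes were filtered with filterByExpr (minimum count 10, total 15), TMM-scaled and compared by edgeR 4.0.16 (quasi-likelihood, robust, two-sided; R 4.3.3), with p adjusted over 13295 genes at 0.05, on a fit checked with simulated counts. SEs are log2 fold changes divided by the square root of F. The genes and lists were chosen with earlier results of these data known. Named are the 33 genes except 1 that is not reported here and stayed in counts and sums, with library values for the 15 highest in wild type and those nearest the rule's edge, and called neighbours and namesakes; library values of Fbxw15 and Fbxw26, and the values of other genes outside the 33 (Fbxw18, overlapping and flanking genes), were added after they were seen. Positions came from GENCODE M21 for 31 of the 33 and RefSeq for 2, and promoter windows from RefSeq GRCm38.p6, read with Python 3.11.15. Alternatives were RLE scaling, library totals, no filter, DESeq2 1.42.0, limma-voom (limma 3.58.1), a replicate block, other CPM limits, ratios and windows, and each library left out.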

Additional observations from a re-analysis of the deposited data

Results flagged for a closer look

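In 4 of 42 sets of overexpression values examined, 1 library lay apart from the other 3. For continuous values chance gives about 1 in 20 such sets. Most sets here were small counts, where 1 count among zeros always lies apart, so that rate does not apply to them. 5430419D17Rik was lower in overexpression replicate 3, at 0.180 CPM with the nearest library at 0.462 CPM. Cdcp1 had its only overexpression count in replicate 2, at 0.155 CPM, and Rufy4 its only one in replicate 3, at 0.180 CPM, with 0 in the others. Each of these 3 values is 1 count. Fbxw18 was higher in overexpression replicate 1, at 5.78 CPM or 50 counts, with the nearest library at 1.71 CPM.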

How the results depend on the processing

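Which genes were chosen depended on the CPM limit. A limit of 0.5 CPM took 30 genes, 7 of them among the 33, and a limit of 2 CPM took 35 with 8 of the 33. A ratio of at least 4 left 20, TMM-scaled CPM took 35 including all 33, and leaving out 1 library took 35 to 46. Over all genes, 644 were called; DESeq2 called 1110, and leaving out 1 library gave 256 (without wild type replicate 2) to 1151 (without overexpression replicate 1). Scaling by library totals alone moved the median log2 fold change to 0.15 and the calls from 438 lower and 206 higher to 294 lower and 444 higher. Of the 33, 17 to 21 were called under other scalings, filters and tools, and 9 to 20 with 1 library left out. With 1 library left out, called neighbours were 2 (without wild type replicate 2) to 5 (without overexpression replicate 1). The same settings gave the 256 and 1151 calls over all genes. Within 50 kb, 3 of 69 tested neighbours were called, and within 500 kb 10 of 394. Fbxw18 passed only with DESeq2 and without overexpression replicate 1 among its 13 alternatives. The replicate block gave 382 calls in all and 11 among the 33; same-numbered libraries deviated together with r = 0.079, 0.014 and 0.072, and wild type replicate 2 correlated best with overexpression replicate 4 (0.152), so the numbers do not show a pairing. The cause of these shifts was not tested. At 1 CPM an overexpression library held 5.56 to 8.66 counts, so each level under 1 CPM rests on fewer counts than that.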
